A study of Mus musculus with 3 samples.

Results

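The genes described here are the 37 genes of the mouse mitochondrial genome, chosen as all annotated genes whose symbol starts with mt-. They were 37 of 55536 annotated genes and comprised 13 messenger RNAs, 2 ribosomal RNAs and 22 transfer RNAs. All 37 were found in the deposited tables. The libraries were ribosomal RNA-depleted total RNA from the cytosolic fraction of macrophages grown from bone marrow (BMDM) of C57BL/6J mice. Lipid A had been added to the cells at 100 ng/ml for 30 min; it is the membrane anchor of bacterial lipopolysaccharide that is sensed through Toll-like receptor 4. There was 1 group of 3 libraries, each made from 1 µg of RNA with a fragment size of 250 to 400 nt, and the labels name the same donor record for all of them. No unstimulated cells, whole-cell RNA or other fraction entered the comparison, so the values below describe levels and the spread between libraries, not a response to Lipid A. The labels number the 3 libraries as biological replicates without saying whether they came from separate cultures or animals, and p-values then measure only the spread between these samples.

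Mitochondrial DNA is transcribed from both strands into long precursors that cover nearly the whole genome. The transfer RNAs lie between most of the other genes and are cut out, which releases the messenger and ribosomal RNAs. All of the proteins encoded there are core subunits of the respiratory chain or of ATP synthase, made together with many subunits that are encoded in the nucleus. Fragments of mitochondrial DNA have also been inserted into the nuclear chromosomes during evolution, and such copies can carry the same sequence as the mitochondrial gene.

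In the annotation (GENCODE M21 on mm10), 28 of the 37 genes were read from the heavy-strand precursor and 9 from the light-strand precursor. The 9 light-strand genes were mt-Nd6 and 8 transfer RNAs. Of the 13 messenger RNAs, 9 started with ATG, and mt-Nd1 (GTG), mt-Nd2 (ATA), mt-Nd3 (ATT) and mt-Nd5 (ATC) started with other codons. In 10 of them a complete stop codon closed the reading frame. The other 3 (mt-Co3, mt-Nd4 and mt-Cytb) ended in a lone T, which the poly(A) tail is known to complete to a stop codon. The 12 heavy-strand messenger RNAs held 5.88 to 16.1% G and 22.1 to 30.0% C. The light-strand mt-Nd6 had the opposite skew, with 28.1% G and 5.97% C.

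A cluster of 7 annotated pseudogenes on chromosome 1 (mm10, chr1:24611535-24616197, minus strand, 4663 bases) held copies of 7 of the 13 messenger RNAs, in the order of the mitochondrial genome. The copies were found by aligning the mitochondrial transcripts to annotated pseudogene transcripts (at least 90% identity over at least 100 bases). Sequence between the pseudogenes was not searched. The copies of mt-Co2 and mt-Atp6 lay 233 bases apart, as did their matched ends on the mitochondrial genome, where mt-Atp8 starts. Whether that nuclear stretch holds a copy of mt-Atp8 was not tested. In the whole annotation 17 pseudogenes matched. Outside the cluster, 10 pseudogenes held between them 3.07, 24.1 and 15.2 expected counts in replicates 1, 2 and 3, and 7 of these 10 were at 0 in every library. In the cluster, 5 copies were identical to the mitochondrial gene over their whole length: Gm28661 to mt-Co2 over 681 bases, Gm28437 to mt-Co3 over 783 bases, Gm10925 to mt-Atp6 over 678 bases, Gm10222 to mt-Nd4l over 294 bases and Gm28439 to mt-Nd4 over 876 bases. Gm10222 and Gm28439 were named after their values were seen.

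The first 60 bases of mt-Co2 (chrM:7013-7072, plus strand) are shown because they read the same in the nuclear copy Gm28661, so that no fragment within them can be placed by its sequence. The start codon is in capitals.
mt-Co2: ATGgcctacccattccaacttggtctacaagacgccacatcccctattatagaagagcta

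The other 2 copies each differed from the mitochondrial gene at 1 base of the aligned stretch. Gm29216 matched the last 483 bases of mt-Co1 with the substitution A1066T, and Gm28438 matched 345 bases of mt-Nd3 with the substitution T3C. Positions are counted from 1 at the 5′ end of the mitochondrial messenger RNA, whose base is given first. The stretches are shown with the differing base in capitals, because that base lies at the very start of the match in both pairs and all further aligned bases are the same. They are at chrM:6390-6418 (plus strand) and chr1:24616160-24616188 (minus strand) for mt-Co1, and at chrM:9459-9486 (plus strand) and chr1:24613092-24613119 (minus strand) for mt-Nd3.
mt-Co1: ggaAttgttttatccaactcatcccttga
Gm29216: ggaTttgttttatccaactcatcccttga
mt-Nd3: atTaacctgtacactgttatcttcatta
Gm28438: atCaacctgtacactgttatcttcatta

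The gene tables give expected counts, which are estimated reads per gene after reads that match several genes are shared out, and TPM, which divides counts by an effective length and scales each library to a fixed total. The summed expected counts of annotated genes were 23403552 (replicate 1), 50435201 (replicate 2) and 35785896 (replicate 3). Macrophage markers were high, with 9 of 10 at 1 TPM or more and Cx3cr1 at 0.143 ± 0.0473 TPM (SD, n = 3). The libraries differed in other ways: stromal markers (collagens and other fibroblast genes) summed to 32.5, 0.23 and 0.25 TPM in replicates 1, 2 and 3. RNAs known to stay in the nucleus, which a cytosolic fraction should hold little of, summed to 522, 327 and 887 TPM, led by Malat1.

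The mitochondrial genes took 0.451% of all expected counts in replicate 1 (95% Wilson interval 0.449 to 0.454%), 0.472% in replicate 2 (0.470 to 0.474%) and 0.535% in replicate 3 (0.533 to 0.537%). The mean was 0.486% ± 0.0436 (SD, n = 3). The intervals did not overlap between libraries; they allow for counting error alone, because reads made by PCR need not be independent molecules. Messenger RNAs made up 99.7% ± 0.235 of these counts, and the ribosomal RNAs 0.335% ± 0.235 (SD, n = 3). The ribosomal share was 0.578%, 0.109% and 0.317% in replicates 1, 2 and 3, and its mean without replicate 1 was 0.213%. In a second quantification, described below, the ribosomal share was 1.56%, 6.77% and 1.08%, with replicate 2 highest instead of lowest. The labels state that ribosomal RNA was depleted. In bulk samples like these, fewer mitochondria in the fraction and less RNA per mitochondrion cannot be told apart.

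The nuclear copies together received 42512, 96823 and 75011 expected counts, against 105621, 238087 and 191437 on the mitochondrial genes. They thus held 28.7%, 28.9% and 28.2% of the joint counts, a mean of 28.6% ± 0.391 (SD, n = 3). With the copies added, the mitochondrial share was 0.633%, 0.664% and 0.745% of all counts (mean 0.681% ± 0.0576). Whether any of these reads came from RNA transcribed from chromosome 1 was not tested.

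The split between gene and copy differed between the messenger RNAs and, for several of them, between libraries. Of the joint mt-Co2 counts, 97.2%, 98.2% and 99.1% lay on the copy in replicates 1, 2 and 3. For mt-Atp6 the copy held 91.4%, 91.2% and 88.8%. For mt-Co3 it held 97.8% in replicate 1 but 87.9% and 84.1% in replicates 2 and 3. All 3 of these genes have a copy that is identical over nearly their full length, and in each library the nuclear copy took most of the counts.

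The split was more even for the shorter complex I genes. The copy of mt-Nd3 held 44.5%, 65.0% and 56.3% of the joint counts, and that of mt-Nd4l 50.7%, 42.8% and 35.0%. By contrast the copy of mt-Co1, which covers only the last 483 of 1545 bases, held 4.98%, 3.88% and 7.16%. The copy of mt-Nd4, identical over 876 of 1378 bases, was at 0 counts in all 3 libraries.

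The authors also deposited a second quantification of the same libraries, a transcript table with the column layout of kallisto, and it split the same sequences differently. The copy of mt-Atp6 held 3.70%, 0.762% and 1.39% of the joint counts there, against 88.8 to 91.4% in the gene tables. No counts were placed on the copy of mt-Nd4l in any library. The copy of mt-Co2 still held 91.7%, 97.6% and 89.7%, and that of mt-Co3 72.1%, 62.9% and 70.2%. Over all of them the copies took 18.5% ± 1.31 of the joint counts (SD, n = 3).

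**Figure D1:**
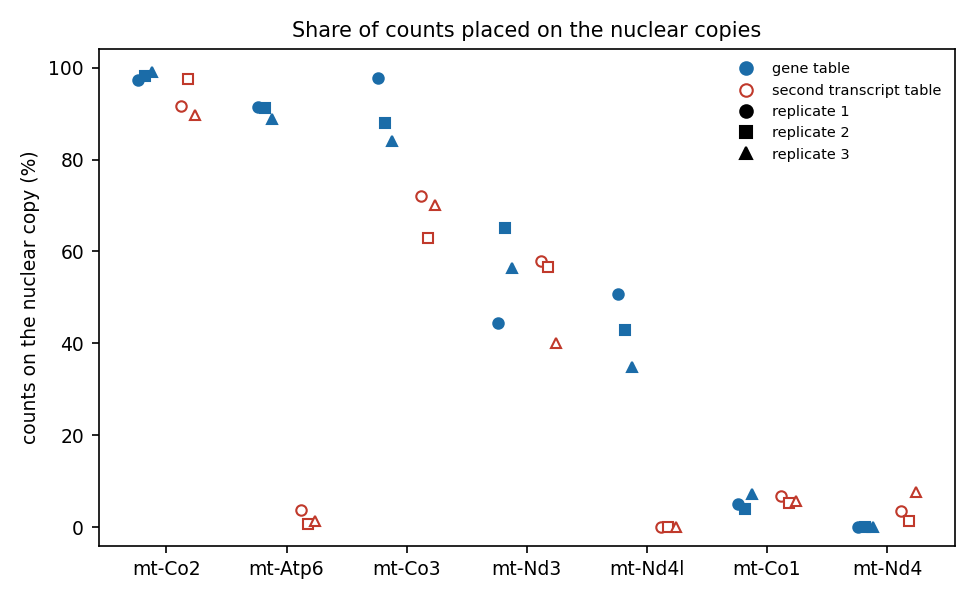
Share of the joint counts of each mitochondrial gene and its nuclear copies that was placed on the copies (vertical axis, percent), for the 7 genes with a copy in the chromosome 1 cluster. Filled points are the gene table, open points the second transcript table, and the marker shape is the replicate. For mt-Atp6 88.8 to 91.4% lay on the copy in the gene table, against 0.762 to 3.70% in the other quantification.

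The deposited tables carry a measure of this uncertainty. The posterior SD of the count, which describes how far the estimate could move with the same reads, was 790, 1758 and 1297 for mt-Co2, larger than its expected counts of 420, 643 and 262. For mt-Co3 it was 1230, 1662 and 2239, beside expected counts of 320, 3838 and 4455. The posterior mean count of mt-Co2 was 5.39, 7.86 and 17.0 times the expected count in replicates 1, 2 and 3, and that of mt-Co3 15.8, 3.38 and 2.80 times. For mt-Nd1, mt-Nd5, mt-Nd6, mt-Cytb, mt-Atp8 and both ribosomal RNAs the posterior SD was 0. The counts of mt-Co2, mt-Co3 and mt-Atp6 taken alone are therefore given here with those of their copies added, called pooled below.

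On raw pooled counts, not scaled to library totals, the 2 quantifications lay closer together than on the counts of the genes alone. The ratio of second-table to gene-table counts for mt-Co2 was 3.23, 1.40 and 11.7 for the gene alone and 1.08, 1.03 and 1.07 when pooled. For mt-Atp6 it was 12.5, 11.9 and 9.66 alone and 1.12, 1.06 and 1.10 pooled. For mt-Co3 it was 13.8, 3.18 and 1.99 alone and 1.07, 1.04 and 1.06 pooled. The second table held somewhat more raw counts for every pooled messenger RNA. The highest pooled ratios were those of mt-Nd6 in replicate 2 (1.43) and of mt-Nd4l (1.29, 1.34 and 1.26). Its library totals were also larger, at 28875323, 56756250 and 49890987 counts. As a share of totals, all pooled mitochondrial genes were at 0.576%, 0.681% and 0.591% there. In the gene tables they were at 0.633%, 0.664% and 0.745%, so the highest library differed between the 2 quantifications.

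**Figure D2:**
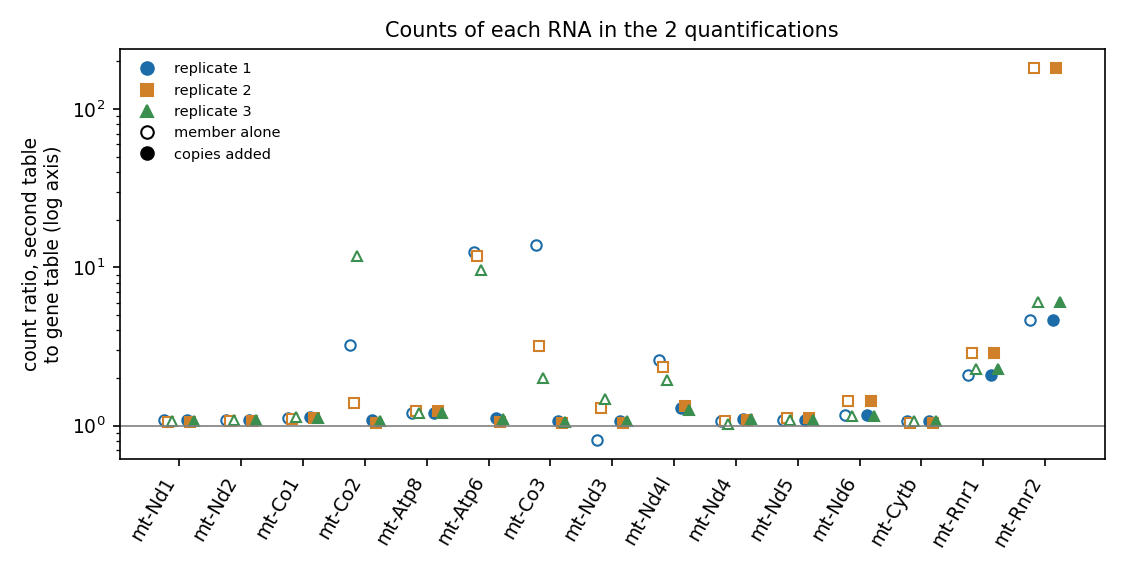
Ratio of the counts in the second transcript table to those in the gene table (vertical axis, log scale) for the 13 messenger and 2 ribosomal RNAs. Open points are the gene alone and filled points the gene with its copies added, with color and shape for the replicate. The filled points of the messenger RNAs lie between 1.03 and 1.43, and those of mt-Rnr2 reach 182 in replicate 2.

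Cytochrome c oxidase (complex IV) passes electrons to oxygen, and mt-Co1, mt-Co2 and mt-Co3 encode its catalytic core. mt-Co1 (chrM:5328-6872) was at 774, 1034 and 992 TPM as deposited, a mean of 934 ± 140 (SD, n = 3), and ranked 29th of all annotated genes. It alone held 43.9% ± 1.24 of the mitochondrial counts, or 33.2% ± 1.44 with all copies added. Its level moved little with pooling, to 986 ± 149 TPM.

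mt-Co2 (chrM:7013-7696) encodes the subunit that receives electrons from cytochrome c. It was deposited at 19.6, 19.3 and 8.71 TPM, with replicate 3 below the other libraries, and ranked 2804th. Pooled with its copies it stood at 703, 1077 and 927 TPM, a mean of 902 ± 188 (SD, n = 3), which was 56.9 times the deposited mean. In the pooled values replicate 3 was no longer the lowest library.

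mt-Co3 (chrM:8607-9390) was deposited at 12.3, 93.9 and 122 TPM, so that replicate 1 stood far below the other libraries. Pooled with Gm28437 it was at 569, 777 and 768 TPM. On library-scaled counts, the highest library was 9.17 times the lowest for mt-Co3 alone and 1.36 times when pooled. The 3 complex IV messenger RNAs held 53.6% ± 1.77 of the pooled mitochondrial counts and 45.6% ± 1.07 of the counts without copies (SD, n = 3).

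NADH dehydrogenase (complex I) takes electrons from NADH, and 7 of its membrane subunits are encoded in mitochondrial DNA. Those 7 held 30.5% ± 0.312 of the pooled counts, the share with the smallest SD among the complexes in these libraries. mt-Nd1 (chrM:2751-3707) was at 267, 431 and 343 TPM and mt-Nd2 (chrM:3914-4951) at 111, 146 and 132 TPM. Neither has a copy in the chromosome 1 cluster, and their values were the same with and without pooling.

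mt-Nd4 (chrM:10167-11544) was at 211, 281 and 251 TPM and mt-Nd5 (chrM:11742-13565) at 185, 284 and 253 TPM. The ranges of these 2 genes overlapped, and both lay above mt-Nd2 in every library. mt-Nd3 (chrM:9459-9806) was deposited at 161, 144 and 143 TPM and reached 290, 411 and 328 TPM when pooled. mt-Nd4l (chrM:9877-10173) was deposited at 222, 256 and 312 TPM and reached 451, 448 and 479 TPM when pooled.

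mt-Nd6 (chrM:13552-14070) is the messenger RNA of the light strand. It was at 220, 362 and 364 TPM, a mean of 316 ± 82.4 (SD, n = 3), with replicate 1 below the other libraries. On the log2 scale its deposited TPM exceeded the median of the 12 heavy-strand messenger RNAs by 0.16, 0.43 and 0.53 (mean 0.37 ± 0.19). With the copies added to the heavy-strand genes the difference turned to -0.75, -0.28 and -0.18 (mean -0.40 ± 0.31). The direction of this difference thus depended on where the reads of the copied genes were counted. mt-Nd6 also overlaps the end of mt-Nd5 by 14 bases on the opposite strand. Whether counting used the strand is not given in the sources used here, so reads of the light-strand messenger RNA and reads antisense to the heavy-strand genes cannot be told apart.

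Cytochrome b, encoded by mt-Cytb (chrM:14145-15288), is the mitochondrially encoded subunit of complex III, which passes electrons from ubiquinol to cytochrome c. It was at 257, 418 and 324 TPM, a mean of 333 ± 80.7 (SD, n = 3), close to mt-Nd1. It held 7.72% ± 0.661 of the pooled counts. Its matched pseudogene on another chromosome was at 0 counts in the gene tables.

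ATP synthase (complex V) makes ATP from the proton gradient, and mt-Atp6 and mt-Atp8 encode its proton channel subunit and a small stator subunit. Both are read from 1 messenger RNA in mitochondria, as are mt-Nd4l and mt-Nd4. The junctions are shown because the annotated genes of a pair overlap there. mt-Atp8 and mt-Atp6 share 43 bases and mt-Nd4l and mt-Nd4 share 7 bases, both in capitals. The stretches are chrM:7912-7984 and chrM:10152-10188, plus strand.
mt-Atp8 and mt-Atp6: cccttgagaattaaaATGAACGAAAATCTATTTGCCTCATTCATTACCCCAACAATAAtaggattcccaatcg
mt-Nd4l and mt-Nd4: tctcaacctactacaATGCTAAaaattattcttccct

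mt-Atp8 (chrM:7766-7969) had the highest deposited TPM of all 13 messenger RNAs, at 1468, 707 and 1304 TPM in replicates 1, 2 and 3. Its expected counts were 1542, 914 and 2071, fewer than those of mt-Nd6. The effective length behind the TPM was 22.6, 17.2 and 24.9 bases, out of 204 annotated bases. In the second table its effective length was 50.0, 44.9 and 53.0 bases and its TPM 273, 186 and 160. Per kb of annotated length it ranked 7th among the 13 messenger RNAs without pooling, at 236 ± 133 CPM per kb (SD, n = 3), so its place at the top rested on the effective length.

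mt-Atp6 (chrM:7927-8607) was deposited at 40.9, 76.6 and 61.4 TPM and reached 474, 866 and 548 TPM when pooled with its copies. The ratio of mt-Atp8 to mt-Atp6, which share a messenger RNA, was 35.9, 9.23 and 21.2 in deposited TPM. It was 3.10, 0.816 and 2.38 in pooled TPM and 1.53, 0.358 and 1.26 in the TPM of the second table. The ratio was lowest in replicate 2 on each of these scales. For mt-Nd4l to mt-Nd4 the ratio was 1.05, 0.910 and 1.24 in deposited TPM and 2.14, 1.59 and 1.91 in pooled TPM. In CPM per kb without the copies it was 0.356, 0.275 and 0.457. With the copies pooled, the means were 231 CPM per kb for mt-Nd4l and 360 for mt-Nd4.

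The order of the 13 messenger RNAs in deposited TPM ran from mt-Atp8 (1159 ± 401) and mt-Co1 over mt-Nd1, mt-Cytb, mt-Nd6, mt-Nd4l, mt-Nd4, mt-Nd5, mt-Nd3, mt-Nd2, mt-Co3 and mt-Atp6 to mt-Co2 (15.9 ± 6.20 TPM, SD, n = 3). The highest mean was 73.1 times the lowest. In only 3 of the 12 neighbouring pairs did the 3 library values not overlap: mt-Co1 above mt-Nd1, mt-Nd5 above mt-Nd3, and mt-Atp6 above mt-Co2. The ranges of all other neighbours overlapped. Within libraries, however, mt-Nd1 was above mt-Cytb and mt-Nd2 above mt-Co3 in 3 of 3 libraries, though their ranges overlapped. In pooled TPM the range shrank to 8.94-fold, with mt-Atp8, mt-Co1, mt-Co2, mt-Co3 and mt-Atp6 at the top and mt-Nd2 at the bottom. There, 2 neighbouring pairs did not overlap, mt-Nd4l above mt-Nd1 and mt-Nd5 above mt-Nd2.

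In pooled CPM per kb of annotated length, a scale that does not use the effective length, the order started with mt-Co1 (1466 ± 214), mt-Co2 (1042 ± 118), mt-Co3 (873 ± 143) and mt-Atp6 (711 ± 72.3). It ended with mt-Nd4l (231 ± 64.3), mt-Nd3 (218 ± 23.9) and mt-Nd2 (176 ± 18.1 CPM per kb, SD, n = 3). By their means on this scale the 3 subunits of complex IV stood highest and 3 subunits of complex I lowest, with an 8.31-fold range. The library values did not overlap in only 3 of the 12 neighbouring pairs. mt-Co3 was above mt-Atp6, and mt-Atp8 above mt-Nd4l, in 2 of 3 libraries each. mt-Atp8 ranged from 84.0 to 331 CPM per kb, so it reached below the lowest value of mt-Nd2 (158). mt-Atp8 stood 10th here and 1st in pooled TPM. Which subunits of complex I came lowest depended on the length used. In pooled TPM, mt-Nd4l ranked 6th (459 ± 17.2) and mt-Nd3 8th (343 ± 61.8), and mt-Nd4, mt-Nd5 and mt-Nd2 stood lowest. The effective lengths of mt-Nd4l were 84.1, 74 and 92.6 bases, out of 297 annotated bases. Those of mt-Nd3 were 129, 116 and 139 bases, out of 348.

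**Figure D3:**
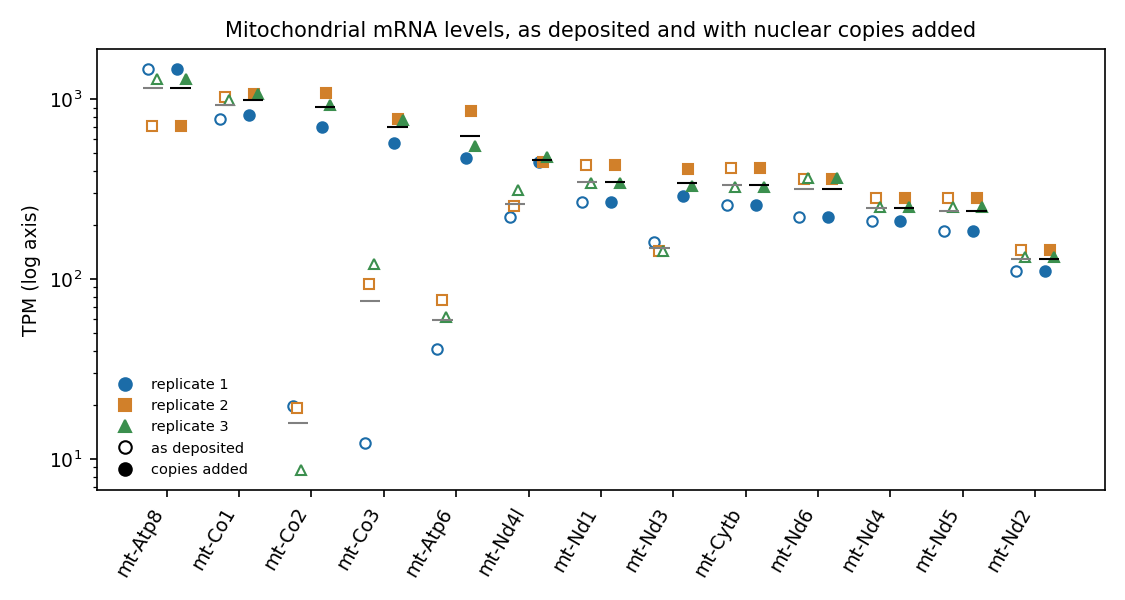
TPM of the 13 mitochondrial messenger RNAs (vertical axis, log scale), ordered by pooled mean. Open points are values as deposited and filled points those with the counts of the nuclear copies added, with color and shape for the replicate and a line at the mean of 3 libraries. mt-Co2 moves from 15.9 to 902 TPM, mt-Co3 from 76.1 to 705 TPM and mt-Atp6 from 59.6 to 629 TPM. The 6 genes without an annotated copy in the cluster stay where they were.

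The 2 ribosomal RNAs of the mitochondrial ribosome were low in these depleted libraries. mt-Rnr1 (chrM:70-1024), the small subunit RNA, had 294, 143 and 291 expected counts, or 8.64, 2.66 and 6.13 TPM. mt-Rnr2 (chrM:1094-2675), the large subunit RNA, had 317, 117 and 315 expected counts, or 5.02, 1.16 and 3.60 TPM. Replicate 2, the deepest library, had the fewest counts of both. On library-scaled counts the highest library was 4.80 times the lowest for mt-Rnr1 and 6.33 times for mt-Rnr2.

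The second table did not share that order for mt-Rnr2. It listed 1475, 21298 and 1916 counts in replicates 1, 2 and 3, which were 4.65, 182 and 6.08 times those of the gene table. Replicate 2 was thus lowest for mt-Rnr2 in the gene table and highest in the second table. For mt-Rnr1 the second table listed 612, 413 and 663 counts, with replicate 2 lowest in both tables. No library difference in mt-Rnr2 can be read from these tables, and what set the 2 quantifications apart was not tested.

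The 22 transfer RNAs, of 59 to 75 bases, were listed at 0 counts in all 3 gene tables. Their effective length was listed as 0 there, as it was for 4625 annotated genes in all, so that a 0 is not a measurement of their level. The second table gave them effective lengths of 15.7 to 21.7 bases and 256, 283 and 345 counts in all, 0.141% ± 0.0515 of its mitochondrial counts (SD, n = 3). Fragments of 250 to 400 nt are longer than any of these RNAs, and whether these counts came from mature transfer RNAs or from precursors was not tested.

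Of those counts, the 8 light-strand transfer RNAs held 94.1% (95% Wilson interval 90.6 to 96.4%), 97.9% (95.5 to 99.0%) and 94.5% (91.6 to 96.4%) in replicates 1, 2 and 3. All 8 were above 0 in every library, with 241, 277 and 326 counts between them. The 14 heavy-strand transfer RNAs shared 15, 6 and 19 counts, and none of them reached 10 in a library. The strand named here is that of the annotated gene. Because strand use in counting is not given, RNA of the light strand and RNA antisense to these genes cannot be told apart. mt-Td was the 1 transfer RNA at 0 in every library, where a count of 0 allows up to 0.104, 0.0529 and 0.0601 CPM in replicates 1, 2 and 3.

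The strand was not the sole difference between these sets. All 14 heavy-strand transfer RNAs lay within 3 bases of another annotated gene on their own strand, or overlapped it. Among the 8 on the light strand, mt-Tq, mt-Ts1 and mt-Tp had no such neighbour within 3 bases, and the nearest was 1175 to 1543 bases away. The part of this spacing in the counts was not tested.

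The 5 transfer RNAs with the highest mean count are shown because all of them are annotated on the light strand, with the anticodon in capitals. All are on the minus strand of chrM, at 15356-15422 for mt-Tp (proline), 6870-6938 for mt-Ts1 (serine), 14071-14139 for mt-Te (glutamate), 5192-5257 for mt-Tc (cysteine) and 5089-5159 for mt-Tn (asparagine). The sequences are those of the annotated transcripts, written with T.
mt-Tp: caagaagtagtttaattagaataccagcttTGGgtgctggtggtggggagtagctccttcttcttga
mt-Ts1: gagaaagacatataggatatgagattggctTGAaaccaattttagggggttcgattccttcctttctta
mt-Te: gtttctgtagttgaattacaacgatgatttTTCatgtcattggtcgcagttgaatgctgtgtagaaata
mt-Tc: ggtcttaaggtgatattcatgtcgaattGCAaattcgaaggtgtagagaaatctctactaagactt
mt-Tn: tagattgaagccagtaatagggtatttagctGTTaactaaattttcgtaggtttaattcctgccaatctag

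mt-Tp, next to the control region where transcription starts, had 99, 159 and 99 counts in the second table. mt-Ts1 had 59, 26 and 68 counts, mt-Te 26, 31 and 58, mt-Tc 31, 26 and 48, and mt-Tn 14, 15 and 25. These are raw counts from libraries of unequal depth. As CPM of the second table's totals, mt-Tp was at 3.43, 2.80 and 1.98, mt-Ts1 at 2.04, 0.458 and 1.36, and mt-Tc at 1.07, 0.458 and 0.962, each highest in replicate 1. mt-Te (0.900, 0.546 and 1.16 CPM) and mt-Tn (0.485, 0.264 and 0.501 CPM) were highest in replicate 3. Of the 6 transfer RNAs with a mean of 10 or more counts, 5 differed between libraries beyond Poisson sampling (chi-square test, described below), beside 72.7% of all genes tested in that table. The other was mt-Ty (adjusted p = 0.449).

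**Figure D4:**
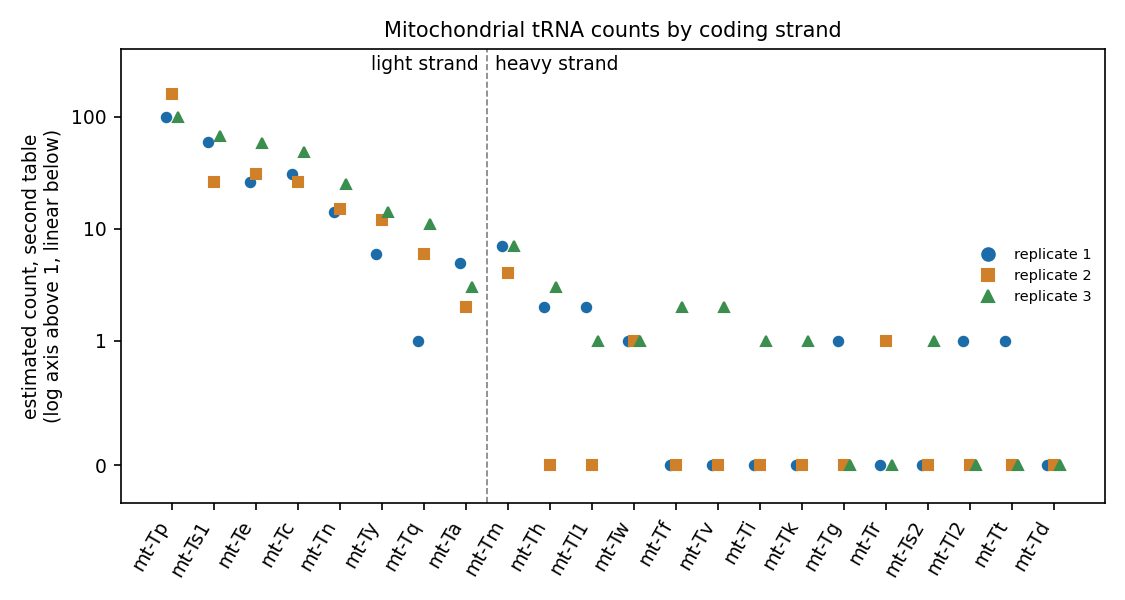
Estimated counts of the 22 mitochondrial transfer RNAs in the second transcript table (vertical axis, log scale above 1 and linear below), with color and shape for the replicate. A dashed line separates the 8 light-strand from the 14 heavy-strand genes. Counts of light-strand genes reach 159, and no heavy-strand gene exceeds 7.

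The spread between libraries was tested for every annotated gene with a mean of 10 or more counts, by a chi-square index of dispersion that asks whether a gene varied more than Poisson sampling allows once library size is scaled by TMM (trimmed mean of M-values). Of 13237 genes tested, 67.9% passed at an adjusted p under 0.05. Among the mitochondrial genes, the 13 messenger and 2 ribosomal RNAs could be tested and all 15 passed, with or without the nuclear copies. At counts as high as theirs, small differences pass this test. The median biological coefficient of variation (edgeR) was 18.1% for these 15 genes, beside 17.5% for all genes tested. It was 12.9% for the 6 messenger RNAs without an annotated copy in the chromosome 1 cluster.

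The size of the differences varied between genes. On TMM-scaled CPM with copies pooled, mt-Cytb, mt-Nd1, mt-Nd4, mt-Atp6, mt-Co2, mt-Nd2, mt-Nd3, mt-Nd5, mt-Co1 and mt-Co3 had a highest library 1.16 to 1.36 times their lowest. In pooled TPM the spread of some of these was wider, 1.83 times for mt-Atp6, 1.63 times for mt-Cytb and 1.61 times for mt-Nd1. On scaled CPM, mt-Nd6 reached 1.55 times and mt-Nd4l 1.75 times. mt-Atp8 reached 3.94 times, with 67.5, 17.1 and 59.7 CPM in replicates 1, 2 and 3. mt-Rnr1, mt-Atp8 and mt-Nd4l were lowest in replicate 2. So was mt-Rnr2 in the gene table, which the second table does not bear out.

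On library-scaled counts (CPM), most mitochondrial genes were highest in replicate 3. Of the 15 genes, 10 were highest there, beside 29.5% of all genes tested. A further 5 were highest in replicate 1 (26.2% of all genes) and 0 in replicate 2 (44.3% of all genes). The median difference of a gene from its own mean over the libraries, on the log2 scale, was 0.0047, -0.14 and 0.19 in replicates 1, 2 and 3, beside -0.018, 0.034 and -0.0081 for all genes tested. With the copies pooled, 11 of the 13 messenger RNAs were highest in replicate 3. RNAs known to stay in the nucleus moved the same way: all 5 tested were highest in replicate 3, and their median difference was 0.36, -1.56 and 1.03. So did the macrophage markers, with a median difference of 0.037, -0.115 and 0.096. Of these 10 markers, 4, 1 and 5 were highest in replicates 1, 2 and 3. The part of either set in the mitochondrial levels was not tested.

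Gene by gene, the order of the libraries depended on the scale. In deposited TPM, 7 of the 13 messenger RNAs were highest in replicate 2 and 10 were lowest in replicate 1. In pooled TPM, 10 were highest in replicate 2. As a share of the TPM of protein-coding genes alone (nuclear and mitochondrial), the mitochondrial genes were at 1.74%, 1.22% and 1.87% in replicates 1, 2 and 3. As a share of all TPM they were at 0.397%, 0.426% and 0.462%. In the gene tables without the copies, the summed shares of counts and of TPM were thus highest in replicate 3. Most single messenger RNAs, by contrast, were highest in replicate 2 in TPM. Within the summed TPM, mt-Atp8, whose TPM rested on a short effective length, was lowest in replicate 2 (1468, 707 and 1304 TPM). The order of the summed TPM need not hold with the copies added, where 10 messenger RNAs were highest in replicate 2. In the second table the share of counts was highest in replicate 2, at 0.464%, 0.565% and 0.478%.

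**Figure D5:**
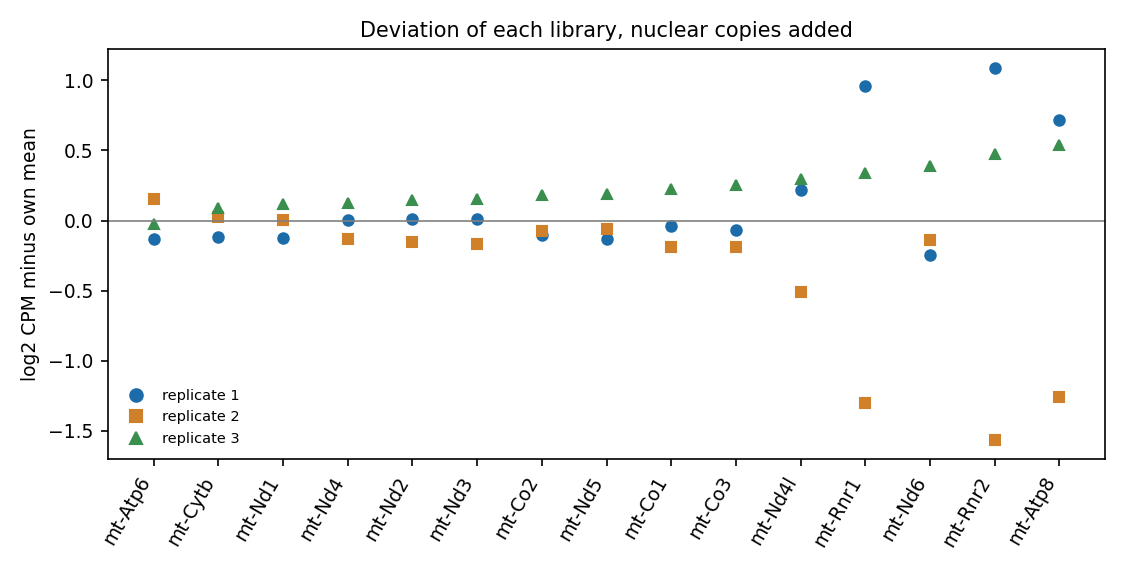
Difference of each library's log2 CPM from the mean over 3 libraries (vertical axis) for the 13 messenger and 2 ribosomal RNAs, with the counts of the nuclear copies added. Genes are ordered by their value in replicate 3, and color and shape mark the replicate. Replicate 3 is above 0 for every gene shown except mt-Atp6 (-0.028), and replicate 2 is lowest for mt-Atp8 (-1.26) and mt-Rnr1 (-1.30). It is also lowest for mt-Rnr2 (-1.57) in these gene-table counts, whereas the second table has replicate 2 highest.

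The mitochondrial messenger RNAs stood above their nuclear-encoded partners. The median over the 13, in log2(TPM + 1), was 7.73, 8.14 and 7.99 in replicates 1, 2 and 3. Over 76 genes for nuclear-encoded subunits of the same complexes and complex II it was 5.11, 5.88 and 5.26, and over nuclear protein-coding genes at 1 TPM or more 2.87, 3.45 and 3.01. The difference from the nuclear-encoded subunits was 2.54 ± 0.25 (SD, n = 3) as deposited and 3.07 ± 0.19 with the copies pooled. The highest of the nuclear-encoded subunits were Cox4i1 at 252 ± 89.9 TPM, Atp5b at 163 ± 39.2 and Cox6c at 142 ± 80.3 TPM. Only 11 of the 76 reached 100 TPM.

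The libraries ranked these nuclear-encoded genes differently. On CPM, 44 of the 74 tested were highest in replicate 2 and 20 in replicate 3, beside 44.3% and 29.5% of all genes tested. Of the 74, 63 passed the test between libraries, beside 67.9% of all genes. Mitochondrial ribosomal protein genes were highest in replicate 2 in 68 of 78 cases, led in level by Mrps21 (103 ± 58.5 TPM), Mrpl33 (41.0 ± 18.2 TPM) and Mrpl52 (32.7 ± 6.93 TPM), and 65 of the 78 passed the test.

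The nuclear genes that transcribe and process mitochondrial RNA had lower median levels than the mitochondrial messenger RNAs. In log2(TPM + 1) the difference of the medians was 6.15 ± 0.24 for the transcription genes and 5.58 ± 0.13 for the processing and decay genes (SD, n = 3). Of 10 genes for mitochondrial transcription, 7 reached 1 TPM. The highest were Tfam, which packages mitochondrial DNA and starts transcription, at 4.87 ± 2.82 TPM, the mitochondrial RNA polymerase Polrmt at 4.82 ± 0.239 TPM, and Mterf3 at 4.59 ± 1.52 TPM (SD, n = 3). Of the 9 tested, 8 passed the test between libraries (67.9% of all genes), and 8 were highest in replicate 2 (44.3% of all genes).

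All 18 genes for processing and decay of mitochondrial RNA reached 1 TPM, and 11 of the 18 passed the test, no more than the 67.9% of all genes. The highest were Slirp (28.2 ± 18.5 TPM), a partner of Lrpprc in stabilizing these messenger RNAs, the oligoribonuclease Rexo2 (16.5, 31.1 and 18.4 TPM) and Hsd17b10 (15.8 ± 8.32 TPM), a subunit of mitochondrial RNase P. Of 6 genes for maintenance of mitochondrial DNA, 5 reached 1 TPM and 4 of the 6 passed the test, again no more than the 67.9% of all genes. They were led by the single-stranded DNA-binding protein Ssbp1 (7.21 ± 4.07 TPM), the polymerase Polg (3.87 ± 0.530 TPM) and the exonuclease Mgme1 (2.10 ± 1.02 TPM).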

How the data were processed

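Total RNA-seq of 3 libraries in 1 group was analysed. Per the labels and the deposited readme files, the tables use mm10 and GENCODE M21. The gene tables derive from transcriptome alignments and have the RSEM layout. The second transcript table has the kallisto layout. Which programs and versions ran, and whether strand was used, was not given in the sources used here. Expected counts, as deposited by the authors, estimate reads per gene and are not normalized. The deposited TPM values are scaled by the authors over all rows of a table. The deposited posterior means and SDs of counts were read as descriptions. Gene tables held 81881 rows, of which 55536 are annotated genes. The other rows were left out.

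Expected counts were rounded for the tests. CPM used TMM-scaled library sizes (edgeR 4.0.16, R 4.3.3), with a prior count of 0.5 on the log2 scale. The chi-square test used genes with a mean of 10 or more counts and Benjamini-Hochberg adjustment over all of them, and was tested on simulated data. A log2 TPM used a pseudocount of 1. DESeq2 1.42.0 size factors, library totals, the second table, counts per kb and leaving out each library were alternatives. Nuclear copies were found with blastn 2.17.0 among annotated pseudogene transcripts in place of genomic sequence, because no genome was used here. Adding their counts to the mitochondrial genes was chosen after seeing the data, apart from the share of counts. A count of 0 allows 3 counts.

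All 13 messenger and both ribosomal RNAs were named, with the 5 transfer RNAs and 5 nuclear copies of highest mean count and the 3 genes of highest mean TPM in each list of nuclear genes. Gene sequences are those of the annotation's transcripts (GRCm38, the build of mm10). The genes and lists were chosen with earlier results of these data known.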

Additional observations from a re-analysis of the deposited data

How the results depend on the processing

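Several results changed with the table and the length scale used. Leaving out 1 of 3 libraries always shifts a mean by less than the SD over libraries. It therefore cannot be weighed against the other settings on that measure. The mitochondrial share of counts (0.486%) was 0.558% of nuclear protein-coding and mitochondrial genes alone and 0.681% with the nuclear copies added. The share of TPM (0.428%) was 1.61%, 0.208% in the second table and 0.681% with copies. In the second table the ribosomal and transfer RNA shares of mitochondrial counts were 3.14% and 0.141%, and the nuclear copies held 18.5%. The log2 range of the 13 messenger RNAs, as a mean over libraries (6.62), was 4.20 in the second table and 3.30 with copies. For mt-Nd6 against the heavy-strand median (0.37), it was 0.62 in counts per kb and -0.40 with copies. The log2 ratio of mt-Atp8 to mt-Atp6 (4.26) was 1.58 in counts per kb, -0.18 in the second table and 0.86 with copies. That of mt-Nd4l to mt-Nd4 (0.084) was -1.49 in counts per kb, 0.92 in the second table and 0.90 with copies, and ranged from -0.030 to 0.19 when a library was left out, turning sign without replicate 3. The difference from nuclear-encoded subunits (2.54) was 2.21 in counts per kb and 3.07 with copies. The median difference in replicate 1 (0.0047) was -0.031 on library totals, -0.15 in the second table and -0.037 with copies, so it has no settled direction. The cause of these shifts was not tested.

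The number of genes that differed between libraries (8984) was between 4374 and 7564 with a library left out, 4374 without replicate 2, while all 15 mitochondrial genes tested passed each time. They also passed with DESeq2 size factors, library totals, a lower count minimum and copies added. Of 21 tested on counts of the second table, 20 passed. Between 8 and 11 of the 15 genes were highest in replicate 3 on CPM under the scalings and tables tried. No paired analysis was possible because there was 1 group.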
